A study of Mus musculus with 24 samples.

Results

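The heptad is a group of 7 transcription factor genes of blood stem cells: Gata2, Runx1, Erg, Fli1, Lmo2, Tal1 and Lyl1. Chromatin accessibility around these genes was measured by ATAC-seq, a method that tags open DNA with the transposase Tn5. An accessible region was taken as a heptad region when it overlapped the body of one of these genes, or when its nearest end of a protein-coding gene, within 50 kb, belonged to one of them. Of 13910 regions in the deposited table, 20 met this rule, and all 20 passed the filter on low counts that left 13325 regions for testing.

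The heptad factors bind together at many enhancers of blood stem and progenitor cells, and they also bind at each other's genes. GATA2 recognises GATA sites, RUNX1 recognises RUNX sites, and ERG and FLI1 are members of the ETS family. TAL1 and LYL1 are basic helix-loop-helix (bHLH) proteins that pair with E-proteins at E-box sites, while LMO2 does not bind DNA itself and bridges the bHLH and GATA proteins. Loss of Runx1, Tal1, Lmo2 or Gata2 blocks formation of the blood system in the mouse embryo.

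All profiled cells were WT CD45.1 donor bone marrow cells recovered 13 to 15 weeks after transplantation into young CD45.2 recipients, which were either WT or of the line called IκB–. IκB proteins hold NF-κB transcription factors inactive in the cytoplasm; the labels give neither the genetic change of the line nor the ages of the mice. The donor subsets were sorted from leg bone marrow as Sca1+ cKit-high cells without lineage markers: HSC (long-term haematopoietic stem cells) and 3 classes of multipotent progenitor called MPP2, MPP3 and MPP4. As background, MPP2 is biased towards megakaryocytes and erythroid cells, MPP3 towards myeloid cells and MPP4 towards lymphoid cells. The sorting protocol gives MPP4 as Flt3+, MPP2 as CD150+ CD48+ and MPP3 as CD150– CD48+, and it gives HSC as CD150– CD48–. Each sample held 500 to 1500 cells, and each of the 8 groups (2 recipient types by 4 subsets) had 3 libraries. Replicates 2 and 3 of WT MPP3 showed no difference beyond sampling noise and were summed and counted as 1 sample, so that n = 2 in WT MPP3, n = 3 in the other groups and 23 replicates entered the fits. The labels do not say whether replicates came from separate recipients, so the p-values measure the spread between these samples, which may be technical. With groups of 2 or 3 replicates, a lack of overlap between groups is a description only. The share of all regions that show it is not given here.

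Total counts ran from 121599 to 963699 per library, so a typical heptad region held few counts in a library. The lowest count of a heptad region was 0 and the highest 126. Levels are given as counts per 1000000 (CPM) on library sizes scaled by the trimmed mean of M values (TMM), and 3 counts, taken as the limit that a count of 0 allows, correspond to 2.84 to 26.5 CPM depending on the library. Intervals of this kind cover counting error only, because PCR copies are not independent molecules. The comparison of recipients asks whether the host environment alters accessibility in WT donor cells, and the comparison of subsets asks where in the hierarchy of progenitors the heptad regions are more or less open. In these sorted populations a smaller share of cells open at a region and a lower accessibility per cell cannot be told apart.

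Accessibility at genes of the gate was set beside the sorted identity. Of 7 gate genes (Kit, Ly6a, Ptprc, Cd34, Flt3, Slamf1, Cd48), 5 had regions, 13 in all, and none lay at Ly6a (Sca1) or Cd48. At Flt3, which defines MPP4, the region at chr5:147366418-147366731 had its highest means in MPP4, 50.6 CPM in WT and 71.7 CPM in IκB– recipients. At Slamf1, which encodes CD150, the single region had means of 34.5, 28.0, 6.42 and 19.9 CPM in WT HSC, MPP2, MPP3 and MPP4, and of 10.4, 9.58, 0.631 and 4.42 CPM in the same subsets of IκB– recipients. HSC thus had the highest mean in both recipient types, although the protocol gives HSC as CD150–, and the cause was not tested. For other cell types, 3 of 5 erythroid genes, 1 of 5 B cell genes, 1 of 5 T cell genes, 2 of 5 neutrophil and macrophage genes and 3 of 5 endothelial genes had regions. No region lay at the globin genes Hbb-bt and Hba-a1, at Cd3e or at Elane.

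Of the 20 heptad regions, 6 belonged to Runx1, 4 to Lyl1, 3 each to Fli1 and Lmo2, 2 to Tal1 and 1 each to Erg and Gata2. Only 4 regions were promoter regions, lying within 1 kb of an annotated transcription start: 2 at Runx1, 1 at Lyl1 and 1 at Tal1. The other 16 were 9 regions inside the bodies of their genes and 7 outside them, and the gene table used holds no exons, so introns and exons were not separated. Distances are given to the nearest annotated start, or for Fli1 and Lmo2 to the nearest end of the gene. Coordinates are of the mouse build mm10 as the deposited table gives them.

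The promoter sequences show which binding letters lie around annotated starts, and accessible regions cover only part of them. Windows from 250 bases before to 50 bases after a start were taken from RefSeq (GRCm38.p6), which gave 10 windows for 5 of the genes: Erg (3), Runx1, Tal1 and Gata2 (2 each) and Lyl1 (1). An accessible region overlapped 3 of these 10 windows, against 26.1% of all 32817 promoter windows. The overlap was 166, 209 and 150 of 300 bases in the distal Runx1, proximal Runx1 and Lyl1 windows, so some letters lie outside the measured regions. These 3 windows are printed 5′ to 3′ in the direction of the gene. Capitals mark GATAA (GATA factors), GGAAG (ETS factors) and TGNGGT (RUNX factors) on either strand, so that GGAAG also appears as CTTCC, and no capital run overlaps another.
Runx1 distal promoter, chr16:92826025-92826324, minus strand: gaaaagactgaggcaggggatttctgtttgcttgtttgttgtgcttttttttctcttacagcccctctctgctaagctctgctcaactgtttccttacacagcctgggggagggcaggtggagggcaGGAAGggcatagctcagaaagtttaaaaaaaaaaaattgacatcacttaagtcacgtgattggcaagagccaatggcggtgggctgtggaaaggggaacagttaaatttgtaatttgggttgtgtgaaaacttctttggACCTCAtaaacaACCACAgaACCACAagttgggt
Runx1 proximal promoter, chr16:92697280-92697579, minus strand: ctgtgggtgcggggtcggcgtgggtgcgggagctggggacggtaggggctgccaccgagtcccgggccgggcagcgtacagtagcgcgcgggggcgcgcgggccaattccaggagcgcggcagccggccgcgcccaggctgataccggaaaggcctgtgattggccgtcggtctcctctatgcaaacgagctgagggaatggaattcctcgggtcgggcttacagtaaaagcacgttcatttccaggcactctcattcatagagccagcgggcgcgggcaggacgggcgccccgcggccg
Lyl1 promoter, chr8:84701207-84701506, plus strand: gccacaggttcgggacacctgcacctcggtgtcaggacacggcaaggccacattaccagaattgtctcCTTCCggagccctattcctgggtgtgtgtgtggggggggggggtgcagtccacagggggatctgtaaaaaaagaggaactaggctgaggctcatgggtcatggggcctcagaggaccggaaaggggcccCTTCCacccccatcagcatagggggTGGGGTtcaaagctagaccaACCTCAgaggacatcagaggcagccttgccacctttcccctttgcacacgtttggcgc
The distal Runx1 window held 1 ETS and 3 RUNX matches, all 3 RUNX matches near its 3′ end. Its ETS match lies just outside the accessible region. The Lyl1 window held 2 ETS and 2 RUNX matches, and the first ETS match lies outside the accessible region. The proximal Runx1 window held no match to these letters, and 69.0% of its bases were G or C, against a median of 52.7% over all windows. E-box letters (CANNTG, not in capitals) were found 3 times in the distal Runx1 window, once in the Lyl1 window and not in the proximal Runx1 window. Over all 10 heptad windows, 2 held GATAA, 5 held GGAAG, 6 held TGNGGT and 5 held CANNTG, while 25.4%, 71.4%, 45.8% and 72.3% of all promoter windows held them. A match of letters is a description only, and its absence from a window says nothing about binding.

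Per kilobase of region, averaged over the 23 replicates, the highest levels were at the Lyl1 promoter with 237 CPM per kb and the proximal Runx1 promoter with 215 CPM per kb. These levels lay above those of 88.2% and 83.7% of all tested regions. The lowest level was at the Runx1 region 76.0 kb from the proximal start, with 80.3 CPM per kb, above 3.94% of tested regions. The 20 regions together held between 0.0799% ± 0.00176 (SD, n = 3) of nuclear counts in IκB– MPP4 and 0.107% ± 0.00681 (n = 3) in WT HSC (the heat map of group means).

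**Figure D1:**
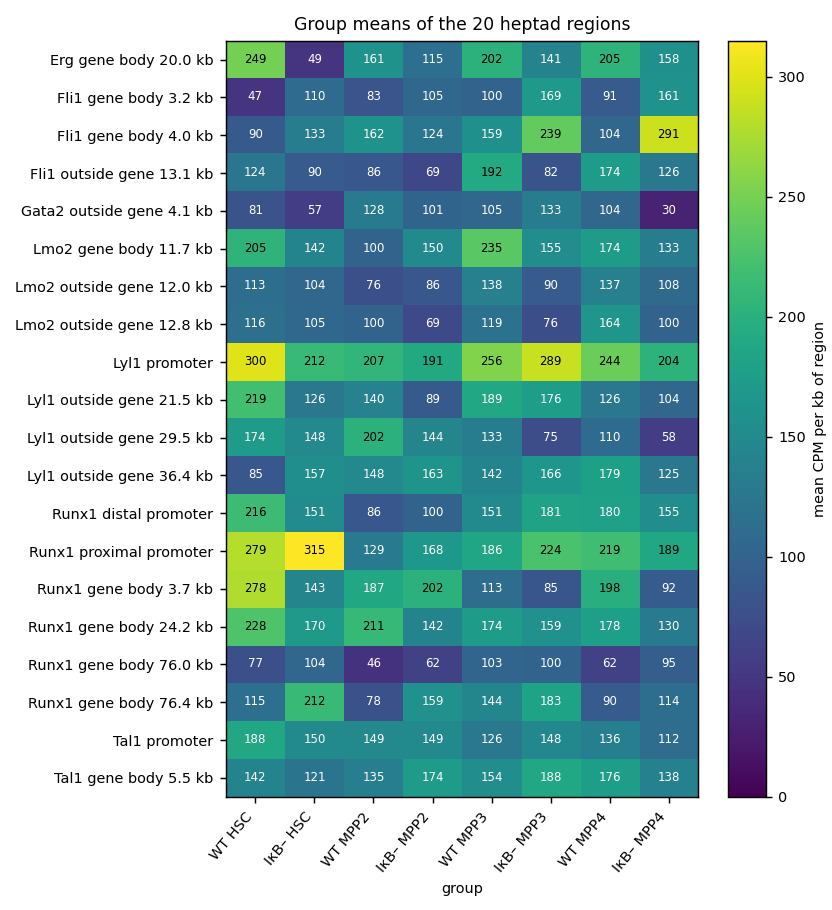
Mean accessibility of each of the 20 heptad regions (rows) in the 8 groups (columns), in CPM per kb of region and printed in each cell. The Lyl1 promoter and the proximal Runx1 promoter rows are the brightest on average, and the Runx1 row at 76.0 kb is the darkest.

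Across the 4 subsets, 1 of the 20 heptad regions differed: a region inside Runx1, 3.7 kb downstream of its distal start (chr16:92822147-92822508). Runx1 encodes the DNA-binding subunit of core binding factor, and the long intron behind its distal start is known to hold enhancers of blood cells. The region was called in the joint test of subset means (edgeR quasi-likelihood test, Benjamini-Hochberg adjusted p = 0.00581), where a region counts as called with an adjusted p under 0.05. In that test 7.2% of all tested regions were called, and 14.3% of those over 1 kb from a gene end, so 1 of 20 is not above the background. At an unadjusted p under 0.05 there were 6 heptad regions, 2 of the 4 promoter regions and 4 of the 16 others, against 18.8% of all tested regions.

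In WT recipients this Runx1 region had 104, 109 and 88.6 CPM in HSC, 67.4, 81.0 and 54.5 in MPP2, 37.5 and 43.9 in MPP3, and 68.9, 79.1 and 66.1 in MPP4. In IκB– recipients it had 27.1, 61.9 and 66.1 CPM in HSC, 74.3, 65.3 and 79.3 in MPP2, 36.0, 20.9 and 34.9 in MPP3, and 40.4, 22.6 and 36.6 in MPP4. All 5 MPP3 replicates lay below all 6 MPP2 replicates, and they lay below every HSC replicate except the lowest one of the IκB– recipients. Over both recipient types the level was 34.6 ± 8.46 CPM in MPP3 (SD, n = 5), 52.3 ± 22.2 in MPP4 (n = 6), 70.3 ± 9.93 in MPP2 (n = 6) and 76.0 ± 30.5 in HSC (n = 6).

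MPP3 was lower than MPP2 at this region by 1.99-fold (log2 fold change -0.99, SE 0.22, edgeR adjusted p = 0.00252), in a comparison that called 8.12% of all regions, 6.27% lower in MPP3. It was lower than HSC by 2.02-fold (log2 fold change -1.01, SE 0.25, edgeR adjusted p = 0.0156), in a comparison that called 2.58% of all regions, 1.95% lower in MPP3. The MPP3 to HSC call was lost without WT HSC replicate 2 (adjusted p = 0.0557), without WT MPP3 replicate 1 (0.0746) and without IκB– HSC replicate 3 (0.0858). MPP4 lay between, at log2 fold changes of -0.52 ± 0.25 (SE) from HSC and 0.49 ± 0.25 from MPP3, neither of which was called (edgeR adjusted p = 0.407 and 0.999). MPP2 and HSC differed by -0.02 ± 0.24 (SE) on the log2 scale, a sign that changed with the scaling of libraries.

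Markers of other cell types are given beside this difference. The Slamf1 region given above was also lowest in MPP3 in both recipient types, and the sort itself separates MPP2 from MPP3 by CD150. The summed level of the 3 erythroid regions was 101 to 124 CPM in WT MPP3 and 72.4 to 107 CPM in IκB– MPP3, overlapping the 114 to 196 and 72.6 to 140 CPM in MPP2. Against HSC it was lower in WT MPP3 without overlap, with 128 to 159 CPM in WT HSC, and overlapped the 79.3 to 115 CPM of IκB– HSC. The 1 B cell region was higher in WT MPP3 than in WT HSC, at 28.1 to 37.9 against 18.3 to 28.0 CPM. The 3 endothelial regions summed to 120.1 to 124 and 60.3 to 91.9 CPM in MPP3, and to 125 to 159 and 97.8 to 180.3 CPM in MPP2, without overlap. The 2 neutrophil and macrophage regions were higher in WT MPP3 without overlap, at 60.0 to 93.9 CPM against 48.5 to 51.0 CPM in WT MPP2, and overlapped in IκB– recipients, at 60.3 to 77.7 against 58.0 to 70.2 CPM. The part of these cell types, or of depth, in the Runx1 result was not tested.

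**Figure D2:**
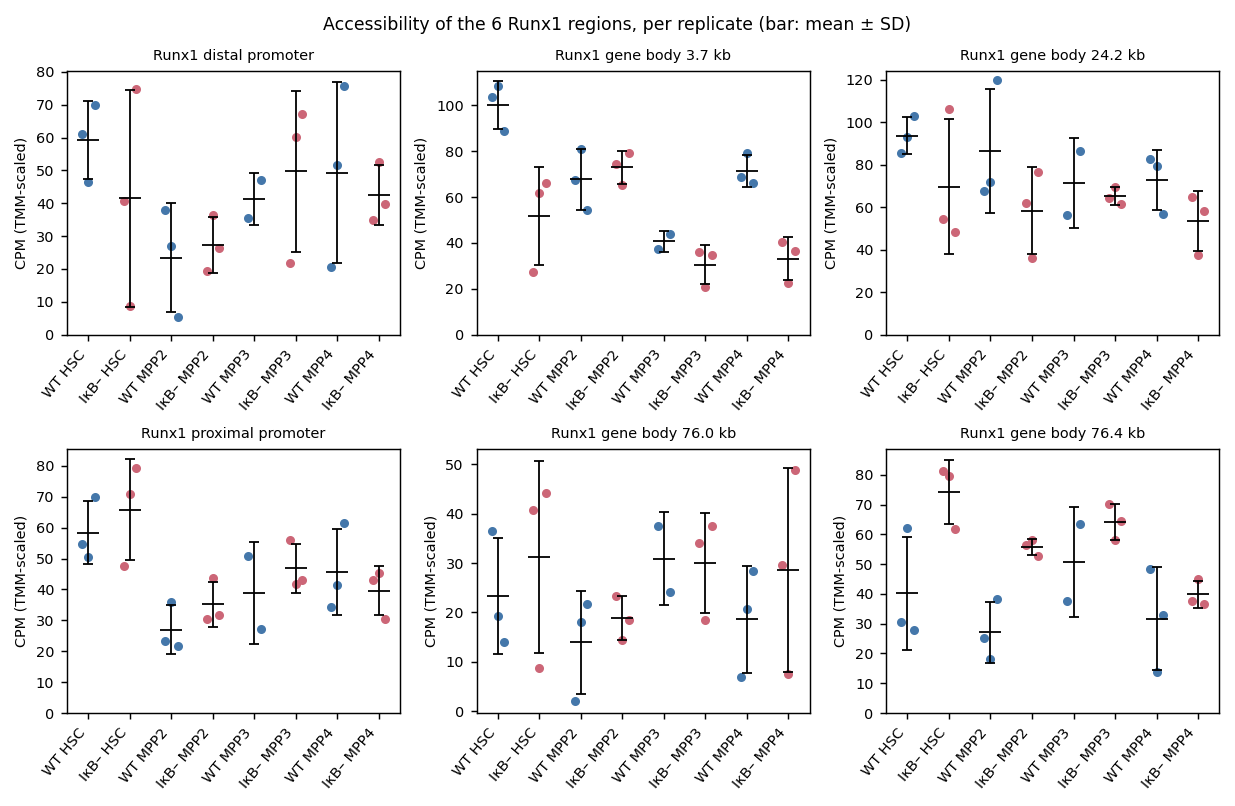
Accessibility of the 6 Runx1 regions, in CPM on TMM-scaled library sizes, for each replicate of the 8 groups (points, blue for WT and red for IκB– recipients) with the group mean and SD (bars). At 3.7 kb all 5 MPP3 points lie below all 6 MPP2 points, and at the proximal promoter all 6 MPP2 points lie below all 6 HSC points.

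The other Runx1 regions did not pass the test between subsets. At the proximal promoter region (chr16:92697295-92697504) the values were 54.8, 50.4 and 70.0 CPM in WT HSC, 23.2, 36.0 and 21.8 in WT MPP2, 50.7 and 27.3 in WT MPP3 and 34.4, 41.3 and 61.4 in WT MPP4. In cells from IκB– recipients they were 47.5, 70.7 and 79.3 CPM in HSC, 30.3, 43.5 and 31.7 in MPP2, 55.9, 41.7 and 42.9 in MPP3 and 43.1, 45.2 and 30.5 in MPP4. All 6 MPP2 replicates lay below all 6 HSC replicates, with a log2 fold change of -1.05 ± 0.28 (SE), unadjusted p = 0.000542 and edgeR adjusted p = 0.242. That comparison called 0.03% of all regions, and the joint subset test gave this promoter an adjusted p of 0.0755.

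At the distal Runx1 promoter region (chr16:92825917-92826191) WT recipients gave 60.9, 46.5 and 70.0 CPM in HSC, 37.9, 27.0 and 5.45 in MPP2, 35.6 and 47.0 in MPP3 and 20.7, 51.6 and 75.5 in MPP4. Those of IκB– recipients gave 40.7, 8.84 and 74.9 CPM in HSC, 19.3, 36.3 and 26.4 in MPP2, 21.8, 60.3 and 67.0 in MPP3 and 35.0, 52.7 and 39.7 in MPP4. MPP2 lay below HSC without overlap in WT but not in IκB– recipients, and the mean difference was -1.02 ± 0.37 (SE) on the log2 scale (edgeR adjusted p = 0.460). Single libraries stood far from their group, since the value of 5.45 CPM rests on 1 count and that of 8.84 CPM on 1 count.

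The Runx1 region away from promoters with the highest mean CPM lay 24.2 kb downstream of the distal start (chr16:92801633-92802043). It held 85.3, 93.0 and 103 CPM in WT HSC, 67.4, 72.0 and 120.0 in WT MPP2, 56.3 and 86.4 in WT MPP3 and 82.6, 79.1 and 56.7 in WT MPP4. With IκB– recipients the values were 54.3, 106 and 48.5 CPM in HSC, 61.9, 36.3 and 76.6 in MPP2, 64.4, 69.6 and 61.7 in MPP3 and 64.6, 37.6 and 58.0 in MPP4. WT MPP4 lay below WT HSC without overlap, the other subsets overlapped, and the joint subset test gave an adjusted p of 0.889. The mean recipient effect was -0.35 ± 0.17 (SE, edgeR adjusted p = 0.310).

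A pair of neighbouring Runx1 regions lay 76.0 and 76.4 kb downstream of the proximal start (chr16:92621201-92621502 and chr16:92620800-92621150). At 76.4 kb WT recipients showed 30.5, 62.0 and 28.0 CPM in HSC, 25.3, 18.0 and 38.2 in MPP2, 37.5 and 63.6 in MPP3 and 48.2, 13.8 and 33.1 in MPP4. The IκB– recipients showed 81.4, 79.6 and 61.7 CPM in HSC, 56.4, 58.0 and 52.9 in MPP2, 70.1, 58.0 and 64.4 in MPP3 and 37.7, 45.2 and 36.6 in MPP4. The IκB– values lay above the WT values without overlap in MPP2 and overlapped them in the other subsets, and the level was 36.2 ± 16.2 CPM over 11 WT replicates and 58.5 ± 14.4 CPM over 12 IκB– replicates. Within IκB– recipients MPP4 lay below the other subsets without overlap, and the joint subset test gave this region an adjusted p of 0.130. At 76.0 kb the values ranged from 2.11 to 37.5 CPM in WT and from 7.53 to 48.8 CPM in IκB– recipients.

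Between recipient types, 0 of the 20 heptad regions were called in the mean effect over the 4 subsets, where edgeR called 1.73% of all regions and 3.28% of those over 1 kb from a gene end. DESeq2 also called 0 of the 20, with 1.1% of all regions called, and limma-voom called 2, the regions of Erg and of Runx1 at 76.4 kb, with 2.33% of all regions called. At an unadjusted p under 0.05, 9 of the 20 stood out, 7 lower and 2 higher in IκB– recipients, against 14.3% of all tested regions and 20.7% of those over 1 kb from a gene end. None of these 9 was a promoter region. The median log2 fold change was -0.24 over the 20 regions and -0.00 over all tested regions.

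The lowest unadjusted p-values in the mean recipient effect were at Erg, at Runx1 76.4 kb and at Runx1 3.7 kb. The log2 fold changes (IκB– over WT recipients) were -0.89 ± 0.26 (SE, edgeR adjusted p = 0.0698), 0.67 ± 0.20 (adjusted p = 0.0718) and -0.55 ± 0.17 (adjusted p = 0.0781). At Runx1 3.7 kb the effect was -0.92 ± 0.35 (SE) in HSC and -1.01 ± 0.36 in MPP4, against 0.11 ± 0.29 in MPP2 and -0.38 ± 0.33 in MPP3. The IκB– values there lay below the WT values without overlap in HSC, MPP3 and MPP4, and the joint test of a difference between subsets gave an unadjusted p of 0.0627 (edgeR adjusted p = 0.999). The summed erythroid marker regions were lower in IκB– than in WT HSC without overlap, at 79.3 to 115 against 128 to 159 CPM. The endothelial ones were lower in IκB– than in WT MPP3 without overlap, at 60.3 to 91.9 against 120.1 to 124 CPM. The neutrophil and macrophage ones were higher in IκB– than in WT MPP2 without overlap, at 58.0 to 70.2 against 48.5 to 51.0 CPM. In the other subsets each of these 3 sums overlapped, as did those of the B and T cell lists in all subsets. The Slamf1 region was lower in IκB– recipients without overlap in HSC (8.81 to 13.6 against 18.7 to 54.3 CPM), MPP2 (7.26 to 13.2 against 21.8 to 39.0) and MPP3 (0 to 1.89 against 3.75 to 9.09). It overlapped in MPP4. Among the other gate regions, a Flt3 and a Cd34 region were higher in IκB– than in WT MPP2 without overlap, and another Cd34 region was lower in IκB– MPP3. The part of these markers in the recipient effects was not tested. The 4 promoter regions had mean recipient effects between -0.17 and 0.13 on the log2 scale, with edgeR adjusted p-values of 0.674 to 0.823.

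**Figure D3:**
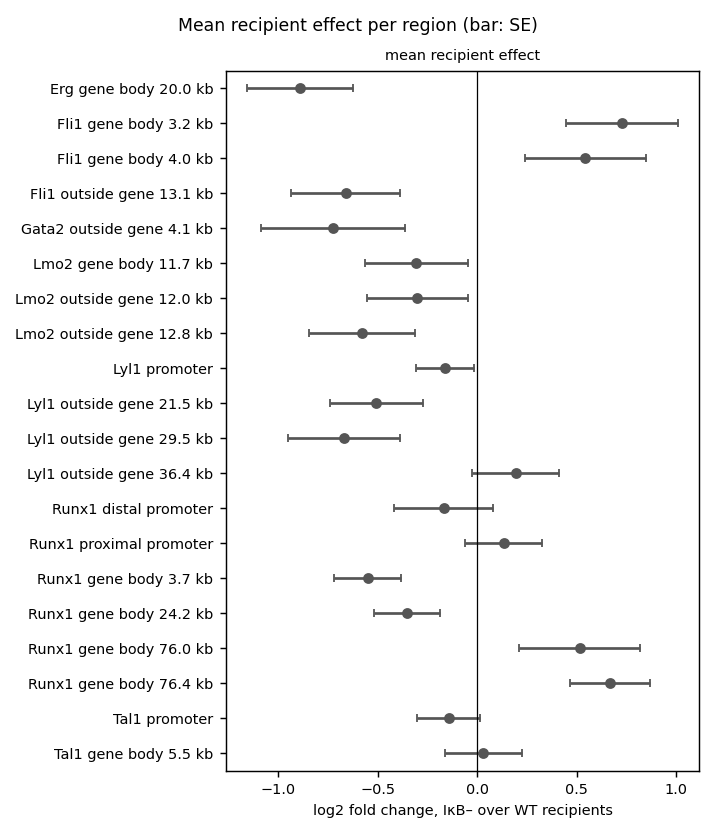
Log2 fold change of each heptad region between IκB– and WT recipients, averaged over the 4 subsets, with its SE (bars); values right of the line are higher in IκB– recipients. None of the 20 was called, and the Erg region is the lowest with -0.89.

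Within single subsets the recipient effect called 0 of the 20 regions each time. The share of all regions called by edgeR was 0% in both HSC and MPP2, 0.21% in MPP3 and 0.045% in MPP4, and DESeq2 and limma-voom called 0 of the 20 as well. At an unadjusted p under 0.05 the heptad regions numbered 2 in HSC (Erg and Runx1 at 3.7 kb), against 6.23% of all regions, and 3 in MPP4, against 7.07%. There was 1 each in MPP2 and MPP3, against 3.65% and 9.49% of all regions. The joint test of whether the recipient effect differed between subsets called 0% of all regions with edgeR, and 0 heptad regions with edgeR, DESeq2 or limma-voom. At an unadjusted p under 0.05 it held 0 heptad regions, against 4.05% of all regions.

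Gata2, which encodes the GATA factor of stem and progenitor cells, had 1 region, 4.1 kb upstream of its first start (chr6:88189625-88189910), and none at its promoters. Its values in WT recipients were 24.4, 31.0 and 14.0 CPM in HSC, 27.4, 33.0 and 49.1 in MPP2, 26.3 and 33.3 in MPP3 and 48.2, 17.2 and 23.6 in MPP4. In cells of IκB– recipients they were 0, 26.5 and 22.0 CPM in HSC, 17.9, 29.0 and 39.6 in MPP2, 25.6, 71.9 and 16.1 in MPP3 and 0, 22.6 and 3.05 in MPP4. The 3 IκB– MPP4 libraries held 0, 3 and 1 counts, which is at or under the limit of 3 counts, so the fitted recipient effect there gives no usable fold. The mean recipient effect and the difference between MPP4 and MPP2 both average over that group and are given without a fold, with edgeR adjusted p-values of 0.351 and 0.159. The comparison of MPP4 with MPP2 called 3.37% of all regions. Without IκB– MPP4 replicate 2 the Gata2 difference between MPP4 and MPP2 was called, with an edgeR adjusted p of 0.0398.

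Erg, an ETS factor needed to maintain stem cells, had 1 region, inside the gene and 20 kb downstream of its nearest start (chr16:95439262-95439461). It was measured at 54.8, 42.6 and 51.3 CPM in WT HSC, 27.4, 36.0 and 32.7 in WT MPP2, 31.9 and 48.5 in WT MPP3 and 34.4, 55.0 and 33.1 in WT MPP4. The corresponding values of IκB– recipients were 20.4, 0 and 8.81 CPM in HSC, 15.1, 21.8 and 31.7 in MPP2, 20.8, 41.7 and 21.5 in MPP3 and 37.7, 7.53 and 48.8 in MPP4. The HSC groups did not overlap, with 9, 11 and 11 counts in the WT libraries and 3, 0 and 2 counts in the IκB– libraries, while the groups of the other subsets overlapped. The HSC effect had an unadjusted p of 0.00171 and an edgeR adjusted p of 0.682. The IκB– HSC libraries are at or under the limit of 3 counts, so the mean recipient effect given above, which averages over them, is no exact fold at Erg. Over all subsets the level was 40.7 ± 10.1 CPM in 11 WT replicates and 23.0 ± 14.6 CPM in 12 IκB– replicates. The mean effect was called without IκB– HSC replicate 1 (edgeR adjusted p = 0.0291) and without IκB– MPP3 replicate 2 (0.0370), and its adjusted p rose to 0.232 without WT MPP3 replicates 2 and 3.

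Fli1, the ETS factor closest to Erg, had 3 regions and none within 1 kb of its ends. The region 3.2 kb inside the gene (chr9:32540117-32540405) gave 0, 7.75 and 32.6 CPM in WT HSC, 23.2, 21.0 and 27.3 in WT MPP2, 24.4 and 33.3 in WT MPP3 and 34.4, 20.6 and 23.6 in WT MPP4. From IκB– recipients it gave 20.4, 26.5 and 48.5 CPM in HSC, 15.1, 43.5 and 31.7 in MPP2, 35.0, 78.9 and 32.2 in MPP3 and 40.4, 52.7 and 45.8 in MPP4. The IκB– values lay above the WT values without overlap in MPP4 and overlapped them elsewhere, and the mean recipient effect was 0.73 ± 0.28 (SE, edgeR adjusted p = 0.189). The region 4.0 kb inside the gene (chr9:32539409-32539555) also had higher IκB– values without overlap in MPP4, 36.6 to 45.8 against 6.89 to 28.3 CPM. Its WT HSC libraries held 3, 3 and 2 counts, so its mean recipient effect (edgeR adjusted p = 0.425) is given without a fold. The region 13.1 kb outside the gene (chr9:32556353-32556617) had IκB– values below WT without overlap in MPP3 and a mean effect of -0.66 ± 0.27 (SE, adjusted p = 0.232), and ranged from 16.9 to 79.1 CPM in WT and from 4.41 to 45.2 CPM in IκB– recipients.

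**Figure D4:**
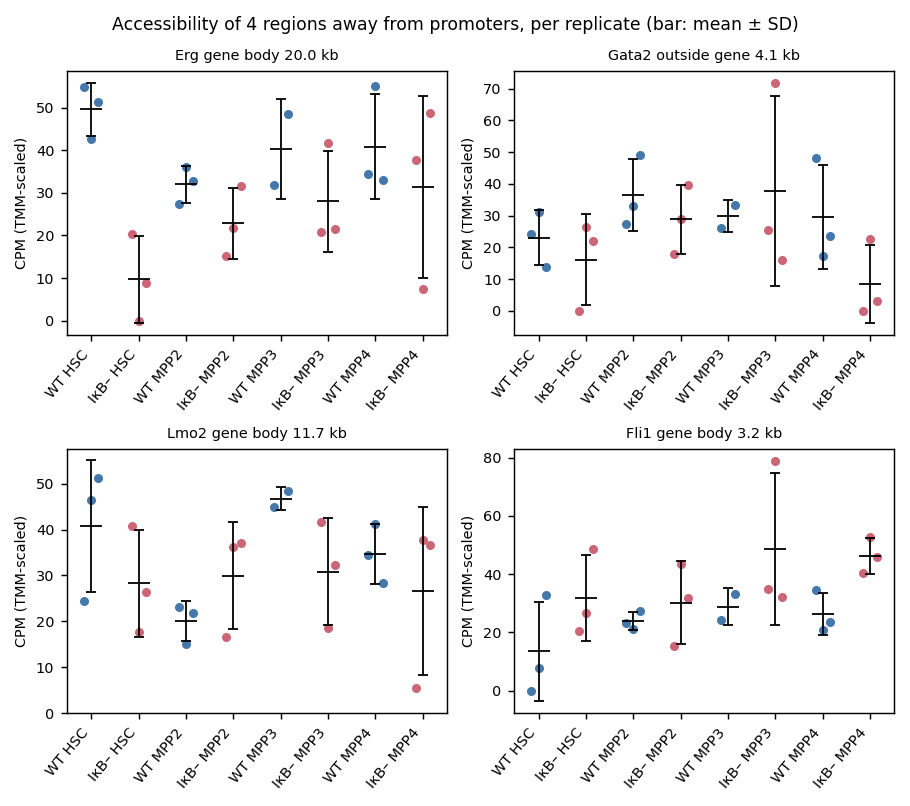
Accessibility of 4 heptad regions away from promoters, in CPM on TMM-scaled library sizes, for each replicate of the 8 groups (points, blue for WT and red for IκB– recipients) with the group mean and SD (bars). The Erg points of IκB– HSC lie at 0 to 20.4 CPM below the WT HSC points at 42.6 to 54.8 CPM, and 2 of 3 Gata2 points of IκB– MPP4 lie at 0 and 3.05 CPM.

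Lmo2, the bridging protein of the complex, had 3 regions and none within 1 kb of its ends. The region inside the gene, 11.7 kb from its end (chr2:103969501-103969700), read 24.4, 46.5 and 51.3 CPM in WT HSC, 23.2, 15.0 and 21.8 in WT MPP2, 45.0 and 48.5 in WT MPP3 and 34.4, 41.3 and 28.3 in WT MPP4. For IκB– recipients it read 40.7, 17.7 and 26.4 CPM in HSC, 16.5, 36.3 and 37.0 in MPP2, 41.7, 18.6 and 32.2 in MPP3 and 5.39, 37.6 and 36.6 in MPP4. WT MPP2 lay below the other WT subsets without overlap, and no such order was seen in IκB– recipients. The IκB– values lay below the WT values without overlap in MPP3 and overlapped them elsewhere, and MPP3 minus MPP2 was 0.74 ± 0.33 (SE, edgeR adjusted p = 0.179). The regions 12 and 12.8 kb outside the gene (chr2:103945789-103946081 and chr2:103945026-103945273) ranged from 5.45 to 55.1 CPM, with mean recipient effects of -0.30 ± 0.25 and -0.58 ± 0.27 (SE, adjusted p = 0.646 and 0.297), and at 12.8 kb IκB– lay below WT without overlap in MPP3.

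Tal1, the bHLH factor required to specify blood, had a promoter region 0.4 kb downstream of its first start (chr4:115056572-115057121). It held 79.2, 128 and 103 CPM in WT HSC, 84.3, 90.0 and 70.9 in WT MPP2, 78.8 and 59.1 in WT MPP3 and 62.0, 96.3 and 66.1 in WT MPP4. Its IκB– values were 102, 88.4 and 57.3 CPM in HSC, 96.3, 65.3 and 84.6 in MPP2, 79.6, 69.6 and 93.9 in MPP3 and 45.8, 90.3 and 48.8 in MPP4. The groups overlapped, apart from WT MPP3 below WT HSC, and neither the mean recipient effect of -0.14 ± 0.16 (SE, edgeR adjusted p = 0.738) nor the joint subset test (adjusted p = 0.524) was called.

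The second Tal1 region, inside the gene and 5.5 kb downstream of its nearest start (chr4:115063131-115063467), held 48.7, 62.0 and 32.6 CPM in WT HSC, 35.8, 51.0 and 49.1 in WT MPP2, 43.1 and 60.6 in WT MPP3 and 82.6, 37.8 and 56.7 in WT MPP4. Its values from IκB– recipients were 20.4, 70.7 and 30.8 CPM in HSC, 53.7, 58.0 and 63.4 in MPP2, 58.7, 71.9 and 59.0 in MPP3 and 51.2, 30.1 and 58.0 in MPP4. IκB– lay above WT without overlap in MPP2 alone, and the mean recipient effect of 0.03 ± 0.19 (SE, edgeR adjusted p = 0.963) turned negative when single replicates were left out.

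Lyl1, the closest relative of Tal1 and able to stand in for it in adult stem cells, had the most accessible of the heptad regions at its promoter (chr8:84701356-84701817). The WT values were 140.1, 116 and 159 CPM in HSC, 69.5, 81.0 and 136 in MPP2, 107 and 129 in MPP3 and 96.4, 99.7 and 142 in MPP4. The IκB– values were 67.8, 106 and 119 CPM in HSC, 61.9, 94.3 and 108 in MPP2, 119, 130 and 150.2 in MPP3 and 86.2, 82.8 and 113 in MPP4. MPP3 lay above MPP2 without overlap in IκB– recipients and overlapped it in WT recipients, and the mean difference was 0.52 ± 0.19 (SE, edgeR adjusted p = 0.0939).

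The 3 other Lyl1 regions lay 21.5, 29.5 and 36.4 kb downstream of its start, all inside the body of the neighbouring gene Nfix, so their assignment to Lyl1 rests on the nearest gene end. The one with the highest mean CPM, at 36.4 kb (chr8:84737691-84737951), gave 6.09, 23.3 and 37.3 CPM in WT HSC, 27.4, 39.0 and 49.1 in WT MPP2, 37.5 and 36.4 in WT MPP3 and 48.2, 34.4 and 56.7 in WT MPP4. Among IκB– recipients it gave 33.9, 35.4 and 52.9 CPM in HSC, 31.7, 50.8 and 44.9 in MPP2, 46.4, 53.3 and 29.5 in MPP3 and 43.1, 30.1 and 24.4 in MPP4. All these groups overlapped between recipients, and the joint subset test gave an adjusted p of 0.899. The regions at 21.5 kb (chr8:84722857-84723110) and 29.5 kb (chr8:84730903-84731103) ranged from 6.10 to 69.8 CPM, with mean recipient effects of -0.51 ± 0.23 and -0.67 ± 0.28 (SE, edgeR adjusted p = 0.297 and 0.241). At 21.5 kb IκB– lay below WT without overlap in MPP2.

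Between MPP3 and MPP2, 16 of the 20 heptad regions had a higher estimate in MPP3, with a median log2 fold change of 0.51 against 0.02 over all tested regions. At an unadjusted p under 0.05 there were 9 heptad regions, 7 higher and 2 lower. In either direction this held for 21.8% of all tested regions and 31.6% of those over 1 kb from a gene end. At the adjusted threshold 1.85% of all regions were called higher and 6.27% lower in MPP3. Only the Runx1 region at 3.7 kb passed the adjusted threshold, and it was lower in MPP3 (the plot of subset differences). Between MPP2 and HSC 13 of the 20 estimates were lower in MPP2, with a median of -0.24 against -0.01 over all regions; the comparisons share the MPP2 samples and are not independent. The comparisons of MPP4 with HSC, MPP2 and MPP3 called 0 heptad regions with edgeR, DESeq2 and limma-voom, where edgeR called 1.22%, 3.37% and 0% of all regions. At an unadjusted p under 0.05 they held 3, 5 and 2 heptad regions, against 12%, 15.7% and 4.04% of all regions. MPP2 against HSC also called 0 of the 20 with these tools, and 2 had an unadjusted p under 0.05, against 8.32% of all regions, both of them Runx1 promoter regions.

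**Figure D5:**
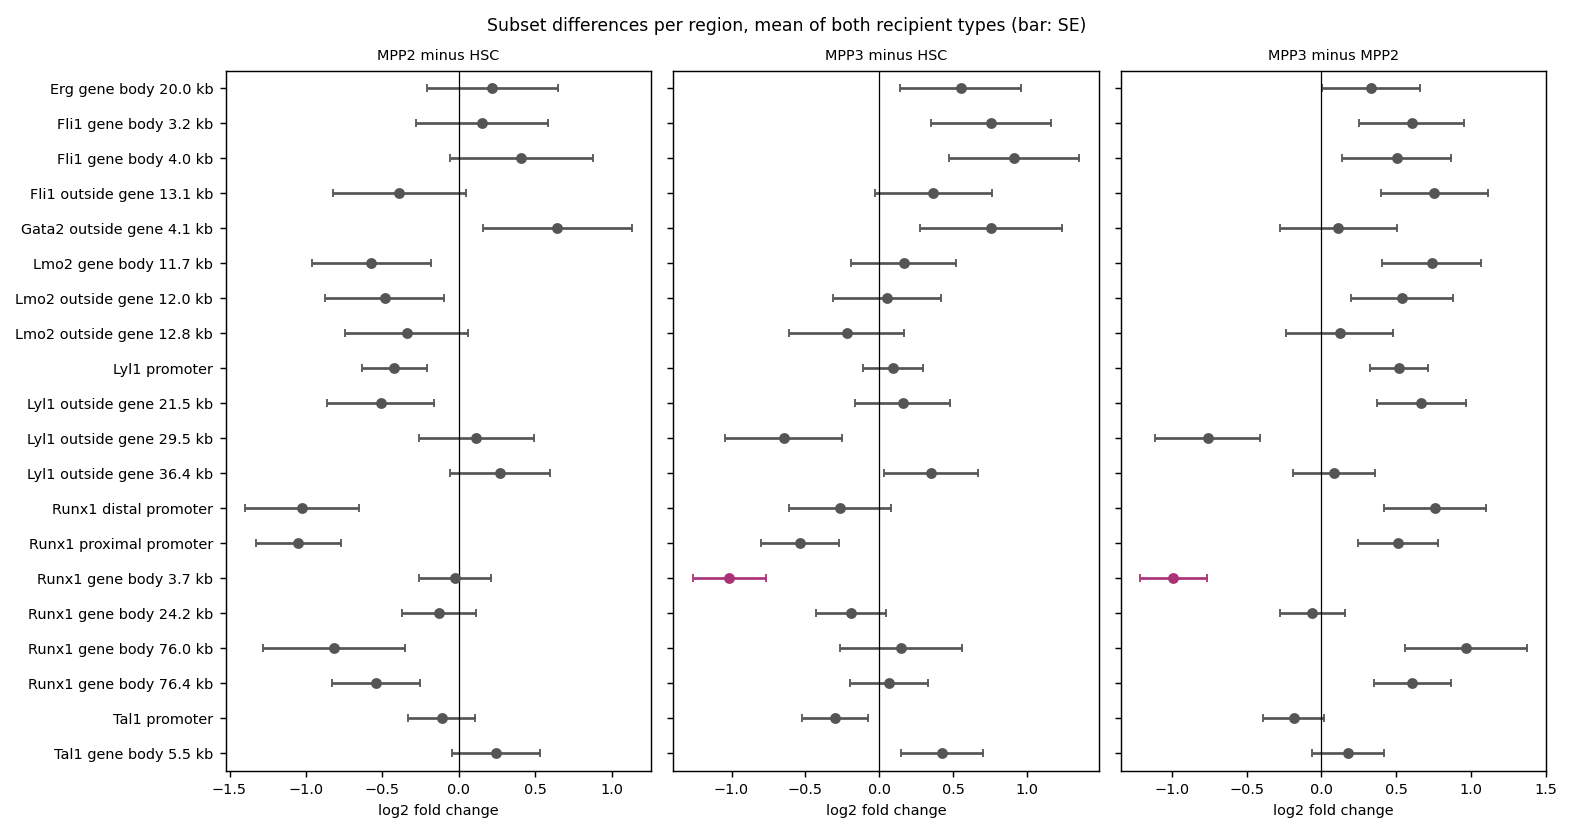
Log2 fold change of each heptad region, averaged over both recipient types, with its SE (bars), for MPP2 minus HSC, MPP3 minus HSC and MPP3 minus MPP2. The Runx1 region at 3.7 kb (purple) is the only one called, at -1.01 and -0.99, and 16 of 20 estimates lie right of the line in MPP3 minus MPP2.

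Over the 23 replicates the Pearson correlation between pairs of regions (log2 CPM) had a median of 0.12 over 190 pairs, from -0.57 to 0.69, and a median of 0.13 over the 28 pairs of the same gene. The points share library and depth, counts were low, and these values are a description. When the 16 regions away from promoters were summed, the genes outside the heptad whose summed regions followed them most closely were Socs7 (r = 0.72), Tmem94 (r = 0.68) and Ccnd2 (r = 0.68), of 9123 genes compared over the 23 replicates. Socs7 and Tmem94 had 1 region each and Ccnd2 had 4. As the highest of 9123 values, these correlations are a description only.

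The nearest regions on either side of the 50 kb limit were the Lyl1 region at 36.4 kb, given above, and regions outside it at Runx1 and Lmo2. The Runx1 region 58.0 kb from its start (chr16:92883943-92884277) ranged from 13.8 to 74.6 CPM in WT and from 7.26 to 95.0 CPM in IκB– recipients. The Lmo2 region 63.9 kb from its end (chr2:103893846-103894104) held 30.5, 42.6 and 51.3 CPM in WT HSC, 31.6, 45.0 and 60.0 in WT MPP2, 26.3 and 27.3 in WT MPP3 and 48.2, 37.8 and 51.9 in WT MPP4. In IκB– recipients it held 27.1, 8.84 and 17.6 CPM in HSC, 31.7, 36.3 and 50.2 in MPP2, 10.4, 9.28 and 16.1 in MPP3 and 13.5, 22.6 and 0 in MPP4. The IκB– values lay below the WT values without overlap in HSC, MPP3 and MPP4 and overlapped them in MPP2.

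Genes that work with the heptad were examined by the same rule. Of 16 cofactor genes all had regions, 31 of which were tested. In the mean recipient effect 3 were called, all lower in IκB– recipients, against 1.13% of all regions called lower. In either direction 1.73% of all regions were called, and 3.28% of those over 1 kb from a gene end. Of the 3, 2 were at Zfpm1, which encodes the GATA partner FOG1. The other 1 was at Gfi1b, which encodes a repressor that acts in the megakaryocyte and erythroid lineages. The Zfpm1 regions (chr8:122309249-122309750 and chr8:122321614-122321964) had log2 fold changes of -0.98 ± 0.23 and -1.23 ± 0.29 (SE, edgeR adjusted p = 0.0197 each). The Gfi1b region (chr2:28599283-28599603) had -0.91 ± 0.22 (adjusted p = 0.0252), and the median over the 31 cofactor regions was -0.21. All 3 calls were lost without WT HSC replicate 2 and without IκB– MPP4 replicate 3. Other single replicates ended 1 or 2 of these calls: WT MPP2 replicate 2, WT MPP3 replicate 1, WT MPP3 replicates 2 and 3, and IκB– MPP2 replicate 1; the adjusted p then reached 0.0898 for Gfi1b and 0.0650 and 0.0734 for Zfpm1. The summed erythroid marker regions had lower means in IκB– than in WT recipients in all 4 subsets, 91.9 against 139 CPM in HSC, 118 against 152 in MPP2, 90.3 against 113 in MPP3 and 119 against 125 in MPP4, with no overlap in HSC. Their part in these calls was not tested.

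Between MPP3 and MPP2, 4 of the 31 cofactor regions were called, 2 in each direction, against 1.85% of all regions called higher and 6.27% called lower. Both Zfpm1 regions were lower in MPP3, by -1.19 ± 0.30 and -1.97 ± 0.35 (SE, edgeR adjusted p = 0.00802 and 0.000142). A region of Id1 (chr2:152741519-152741954), whose product blocks E-proteins and so the partners of TAL1, was higher by 1.24 ± 0.26 (adjusted p = 0.00137). The fourth was a region of Cbfa2t3, a corepressor in TAL1 complexes, higher by 0.93 ± 0.29 (adjusted p = 0.0338), a call lost with DESeq2 (adjusted p = 0.0829) and in 6 of 23 fits that left out 1 replicate (up to 0.189, without WT MPP3 replicates 2 and 3).

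Of 12 paralogues of the heptad, 9 had regions and Gata1, Tal2 and Nhlh1 had none. Of their 23 regions, edgeR and DESeq2 called 0 in the mean recipient effect and limma-voom called 1; 7 had an unadjusted p under 0.05, against 14.3% of all regions and 20.7% of those over 1 kb from a gene end, and the median log2 fold change was -0.04. Between MPP3 and MPP2 edgeR called 6, 2 higher and 4 lower in MPP3, with a median of 0.19, while DESeq2 called 5 and limma-voom 8. The share of all regions called was 8.12% by edgeR (15% of those over 1 kb from a gene end), 5.91% by DESeq2 and 13% by limma-voom. Of the 6, a second Ets1 region (-0.77 ± 0.25, SE) was lost in 12 of 23 fits that left out 1 replicate and with DESeq2 and library totals, Runx3 in 4 of 23 and Elf1 in 1 of 23. The largest of these were at the ETS genes Etv6 (chr6:134226787-134227142, -2.35 ± 0.34, SE, edgeR adjusted p = 9.22e-06) and Ets1 (chr9:32706004-32706393, 1.65 ± 0.33, adjusted p = 0.000726) and near Lmo1 (chr7:109114955-109115318, -1.86 ± 0.36, adjusted p = 0.000474). Of 12 genes known as targets of the heptad, 9 had regions. Of their 22 tested regions, 2 were called between MPP3 and MPP2, at Cd34 and Spi1, both higher in MPP3, with a median log2 fold change of 0.36 over the 22. Of all regions, 1.85% were called higher in that comparison. The Cd34 call was lost with DESeq2 (adjusted p = 0.0819) and in 6 of 23 fits that left out 1 replicate (up to 0.149, without WT MPP2 replicate 1), and the Spi1 call in 4 of 23 (up to 0.0784, without WT MPP2 replicate 1). In the mean recipient effect 0.608% of all regions were called higher, and 3.28% of those over 1 kb from a gene end were called in either direction. There 1 target region was called, 34.0 kb from Cd34 and higher in IκB– recipients by 1.11 ± 0.28 (SE, edgeR adjusted p = 0.0319). This call was lost in 9 of 23 fits that left out 1 replicate (adjusted p up to 0.146, without IκB– HSC replicate 3) and with limma-voom.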

How the data were processed

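The values are raw counts per accessible region, deposited by the authors in 1 table for all 24 libraries. The submitters' processing notes name mm10, Bowtie2, SAMtools, Picard, MACS2 2.1.0 and deepTools without their roles; how regions were merged, duplicates filtered and transposase offsets handled is not given in the sources used here, and a duplicate filter would change low counts. Its columns write KO for IκB– recipients and LT for HSC.

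Counts were tested on the whole table with edgeR 4.0.16 in R 4.3.3 (TMM, filterByExpr, robust quasi-likelihood fit of 8 groups, 15 residual degrees of freedom), and p-values were adjusted by Benjamini-Hochberg over the 13325 tested regions. WT MPP3 replicates 2 and 3 were summed, because a chi-square test of their counts gave 1.005 per degree of freedom (p = 0.348 over 13126 regions) while other pairs of that group differed. Total counts per library were 121599 to 963699. Alternatives were DESeq2 1.42.0, limma-voom (limma 3.58.1), other scalings, no filter, 24 separate libraries, a replicate term, each replicate left out, and limits of 10 and 100 kb.

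The 7 genes, the gene lists and the tests were chosen with earlier results of these data known. Regions described in full are the promoter and the other region with the highest mean CPM (not per kb) of each gene, the 3 with the smallest p in the mean recipient effect and in the joint subset test, and any called region. Genes named from the lists of cofactors, paralogues and targets were chosen after their values were seen. Gene positions and promoters are from RefSeq GRCm38.p6, and region coordinates are printed as the table gives them. Motifs were searched in promoter windows; the sequence of regions away from promoters was not analysed here.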

Additional observations from a re-analysis of the deposited data

How the results depend on the processing

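Heptad regions held between 0 and 126 counts in a library, and the part of depth in the results was not tested. The Runx1 region at 3.7 kb was called in the joint subset test and between MPP3 and MPP2 under all 31 alternatives run, with adjusted p-values up to 0.0481 and 0.0247. In the mean recipient effect the number of called heptad regions was 0 in the main fit, 2 with limma-voom, 1 with the 100 kb limit (Lmo2 at 63.9 kb, log2 fold change -1.17 ± 0.27 SE, edgeR adjusted p = 0.0178, lost without WT MPP3 replicates 2 and 3 and without IκB– MPP4 replicate 3 at 0.0594 and 0.0540) and 0 to 1 when single replicates were left out. The 1 was Erg without IκB– HSC replicate 1 or IκB– MPP3 replicate 2, and Runx1 at 76.4 kb without WT MPP4 replicate 1. Leaving out single replicates gave 1 to 2 called regions in the joint subset test, 0 to 1 in MPP3 minus HSC, 1 to 2 in MPP3 minus MPP2 and 0 to 1 in MPP4 minus MPP2. In MPP3 minus MPP2 limma-voom called 3, with 13% of all regions called, and the 100 kb limit gave 2, the second at Lmo2 63.9 kb, lost in 4 fits without 1 replicate (adjusted p up to 0.0737). The cause of these changes was not tested.

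Replicate numbers did not pair the samples by the rule used, since the correlation of deviations exceeded 0.1 in 52 of 84 same-number pairs (median 0.133, lowest -0.0954) and in 6 of 168 pairs of different numbers (median -0.0639), although each of the 24 libraries correlated best with its own number, a hint from the data and not from the design. With a replicate block and WT MPP3 replicates 2 and 3 kept apart, the mean recipient effect called 3 heptad regions (Erg, Runx1 at 76.4 kb and Runx1 at 3.7 kb), the joint subset test 5 and MPP3 minus MPP2 2, where 3.71%, 14.9% and 16.9% of all tested regions were called. Keeping these libraries apart without the block gave 0, 1 and 1.

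Signs that changed belonged to values near 0. At Runx1 3.7 kb MPP2 minus HSC was 0.0676 with library totals, 0.0181 with nuclear totals and -0.1625 to 0.1306 without single replicates. Library totals moved the median of all regions in MPP3 minus HSC from -0.02 to 0.12. The mean recipient effect without single replicates ran from -0.0929 to 0.1038 at Tal1 5.5 kb and from -0.0159 to 0.2641 at Runx1 58.0 kb.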
